A study of Mus musculus with 2 samples.

Results

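The small leucine-rich proteoglycans described here are 9 genes chosen by name, Dcn, Lum, Fmod, Ogn, Bgn, Prelp, Aspn, Omd and Podn, out of 32285 genes counted. They were read in single cells of mouse retinal pigment epithelium (RPE) and choroid, the vascular and stromal layer behind the retina, from 2 droplet libraries. The Tsc1 flox library came from mice aged 10 weeks with a floxed Tsc1 gene. Mice of the same age that also carried Best-Cre, a Cre transgene labelled as specific to the RPE, gave the Tsc1 RPE KO library, so that both groups share the floxed allele. Each library pooled 1 male and 1 female, the neural retina was taken off before digestion of the posterior eye cup, and live cells were sorted. Tsc1 restrains mTORC1, a growth-control kinase complex, and the title of the series concerns targets of excess mTORC1 activity in the RPE. Each genotype is 1 library, which allows no test between them, and every interval below is a 95% interval that covers counting error only.

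These proteins are secreted into the extracellular matrix, where their curved arrays of leucine-rich repeats bind collagen fibrils and help set how thick the fibrils grow and how they are spaced. Most carry a glycosaminoglycan sugar chain. Dcn (decorin), Bgn (biglycan) and Aspn (asporin) belong to 1 subfamily, of which Dcn and Bgn carry chondroitin or dermatan sulfate. Lum (lumican), Fmod (fibromodulin), Prelp and Omd (osteomodulin) belong to another, in which keratan sulfate is common. Ogn (osteoglycin, also called mimecan) and Podn (podocan) stand in separate subfamilies. In the eye the family is best known from the dense collagen of the sclera and cornea, and the sclera lies directly behind the choroid.

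Several members sit beside each other in the genome (mm10). Aspn (chr13:49544443-49567565), Omd (chr13:49582462-49592822) and Ogn (chr13:49608046-49624501) follow each other on the plus strand with gaps of 14.9 and 15.2 kb, and Ecm2, a related gene, lies 11.7 kb before Aspn. Cenpp, a centromere protein gene on the other strand, overlaps all 4. Dcn and Lum are 47.0 kb apart on chromosome 10, followed by the related genes Kera and Epyc, and Prelp and Fmod are 116 kb apart on chromosome 1. Bgn lies on the X chromosome, and Podn (chr4:108014791-108096445) overlaps Scp2 on the same strand. Whether counting used strand is not given in the sources used here, so UMIs of Cenpp, or of Gm15851 over Prelp, cannot be told apart from those of the members without it, and the counts of Podn and Scp2 are less certain in any case.

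The 250 bases upstream of the start of 5 members are printed below. Of these members, Aspn, Fmod, Ogn and Omd were far higher in scleral-type fibroblasts, while Bgn passed 2-fold in 1 library only. The sequences come from RefSeq (GRCm38.p6), in which 7 of the 9 members had an entry. Podn, which was also higher in scleral-type cells in both libraries, and Prelp had entries and are not printed. Capitals mark every match, on either strand, to the motifs TATAAA (the TATA box), CCAAT (the CCAAT box), GGGCGG (the GC box), TGACTCA (an AP-1 site) and the E-boxes CACGTG and also CATCTG. All 5 genes are on the plus strand, at chr13:49544193-49544442 (Aspn), chr1:134037004-134037253 (Fmod), chr13:49607765-49608014 (Ogn), chr13:49582212-49582461 (Omd), chrX:73483351-73483600 (Bgn).
Aspn: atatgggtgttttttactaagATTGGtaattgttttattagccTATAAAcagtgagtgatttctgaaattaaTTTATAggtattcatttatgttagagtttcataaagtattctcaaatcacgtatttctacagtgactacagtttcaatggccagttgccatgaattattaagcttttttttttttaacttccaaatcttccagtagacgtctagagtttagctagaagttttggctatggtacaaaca
Fmod: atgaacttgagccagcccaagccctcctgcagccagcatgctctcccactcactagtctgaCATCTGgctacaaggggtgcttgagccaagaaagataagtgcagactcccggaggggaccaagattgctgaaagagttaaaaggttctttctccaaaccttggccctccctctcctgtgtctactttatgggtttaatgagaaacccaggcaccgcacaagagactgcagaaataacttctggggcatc
Ogn: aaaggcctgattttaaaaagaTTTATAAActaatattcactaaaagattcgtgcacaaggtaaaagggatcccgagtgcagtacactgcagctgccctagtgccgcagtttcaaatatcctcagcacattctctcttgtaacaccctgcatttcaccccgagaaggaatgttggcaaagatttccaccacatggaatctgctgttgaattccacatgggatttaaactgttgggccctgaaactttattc
Omd: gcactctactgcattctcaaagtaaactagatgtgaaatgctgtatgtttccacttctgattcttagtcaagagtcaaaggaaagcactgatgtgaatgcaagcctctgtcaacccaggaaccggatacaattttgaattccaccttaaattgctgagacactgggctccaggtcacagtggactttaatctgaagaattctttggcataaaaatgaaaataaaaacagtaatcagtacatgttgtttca
Bgn: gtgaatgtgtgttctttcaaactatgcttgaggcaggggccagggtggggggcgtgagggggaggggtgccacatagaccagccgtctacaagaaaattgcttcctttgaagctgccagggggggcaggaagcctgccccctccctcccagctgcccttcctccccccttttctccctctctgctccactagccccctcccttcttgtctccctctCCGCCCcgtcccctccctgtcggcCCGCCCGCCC

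The upstream sequence of Aspn was 30% G or C, and it held TATAAA matches 207 and 178 bases before the start and a CCAAT match at 229 bases. That of Ogn, 42.0% G or C, held a pair of overlapping TATAAA matches at 229 and 227 bases, so that its capitals form 1 run. That of Omd, 38.4% G or C, held none of the 6 motifs. Fmod had 51.2% G or C and 1 CATCTG match at 189 bases before the start. Bgn had 64.4% G or C and 3 GC boxes, at 34, 10 and 6 bases before the start, of which the nearer pair overlap. The first listed start of Podn, a member higher in scleral-type cells, also had GC boxes, at 202 and 70 bases, and a CATCTG match at 82 bases. Over 32851 promoters of the same length, 12.4% held TATAAA, 33.8% CCAAT, 32.7% GGGCGG and 14.4% CATCTG, and the median G or C content was 52.4%. Aspn, Omd, Ogn and Fmod were below that median, and Bgn, Prelp (55.6%) and both listed starts of Podn (78% and 64%) were above it, so members high in scleral-type cells lay on both sides. These matches are descriptions of letters and not of bound sites.

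After filtering there were 1524 cells in Tsc1 flox and 1853 in the Tsc1 RPE KO library, with medians of 4525 and 4617 UMIs (unique molecular identifiers, 1 per captured RNA molecule), and 2 cell barcodes occurred in both. The cells formed 19 clusters, named from marker genes that hold no member, in a clustering from which the members were left out. Fibroblast-like cells split into a choroidal-type class of 237 and 154 cells and a scleral-type class of 29 and 24 cells. The scleral-type class carried 15 of 15 measured scleral markers at least 2-fold above the choroidal-type class. That count is for the class as a whole, since its cells did not share these markers alike. Tnmd and Cilp2 were both absent from 15 of the 29 and 18 of the 24 cells, while Pi16, Clec3b and Cd34 lay mainly in those cells (described further on). The choroidal-type class carried only 5 of 12 choroidal markers in that way (Edn3, Pgf, Aldh1a2, Cp and Slc26a7), and Apod, Aldh1a3 and Tmeff2 from the same list were higher in the scleral-type class, so the choroidal name rests mainly on Edn3 and Pgf. Median depth was 3915 and 3848.5 UMIs per choroidal-type cell and 5470 and 6322 per scleral-type cell. Tsc1 had 0 UMIs in the 12 and 46 RPE-like cells, and 3' tags outside the deleted part of the gene check nothing about the labels.

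Most member UMIs lay in fibroblasts. Of 25143 member UMIs in all cells, 24750, or 98.4% (98.3 to 98.6%), lay in the 2 fibroblast classes, a pooled count that follows the number of cells in each class and the most abundant member, Dcn, more than the level of each member per cell. For single members the share ran from 81.3% for Aspn to 99.5% for Lum. B, T and NK cell-like cells together had a Dcn UMI in 47 of 1737 cells (2.71%) and a Podn UMI in 0 of 1737. Choroidal-type cells, at a slightly lower median depth, had Dcn UMIs in 227 of 237 cells of Tsc1 flox and 148 of 154 of Tsc1 RPE KO. Free RNA, read from barcodes with 10 to 100 UMIs, held Dcn at 1230 and 840 CPM (UMI counts per 1000000 UMIs) against 27713 and 18744 CPM in scleral-type cells.

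**Figure D1:**
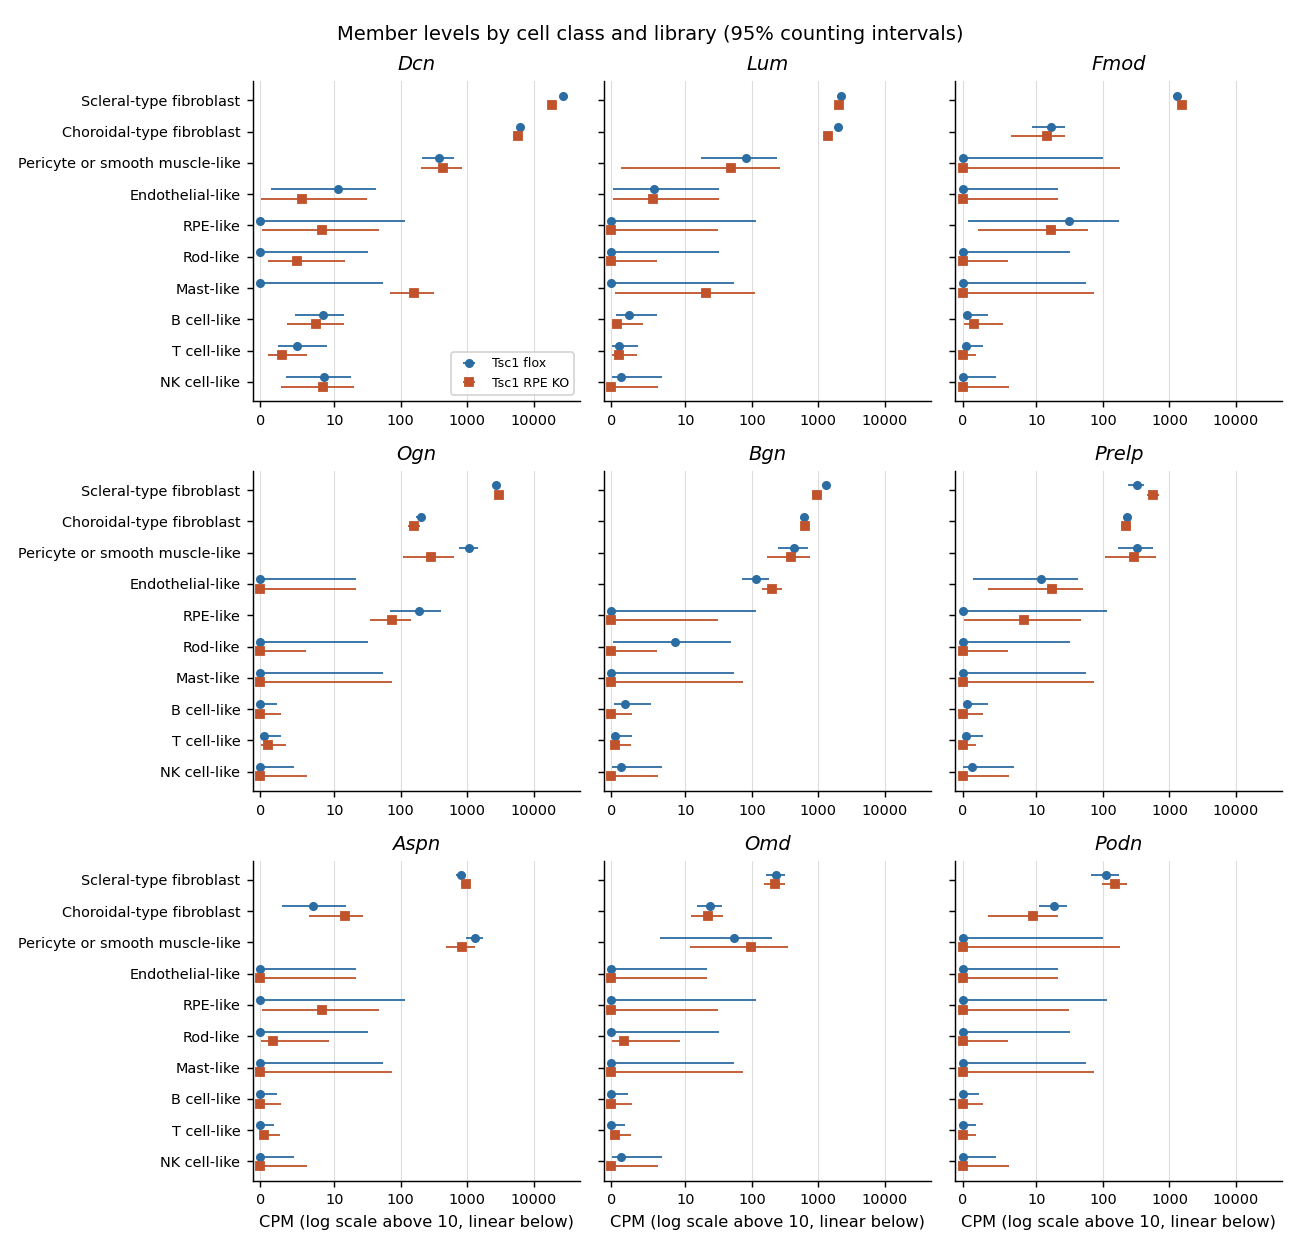
CPM of each member (horizontal axis, log scale above 10 and linear below) in 10 named cell classes, circles for Tsc1 flox and squares for Tsc1 RPE KO, with exact Poisson intervals. Most members are highest in scleral-type fibroblasts, while in Tsc1 flox pericyte-like cells hold Aspn at 1312 CPM against 810 CPM in scleral-type cells, and Prelp at 328 against 320 CPM.

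Scleral-type fibroblasts carried far more of the family than choroidal-type fibroblasts, and 3 levels of contrast could be seen. Aspn and Fmod had few UMIs in choroidal-type cells, Ogn, Omd, Podn and Dcn were several-fold higher in scleral-type cells, and Lum, Bgn and Prelp were shared. All 9 members together made up 36672 CPM (35772 to 37590) of the scleral-type UMIs in Tsc1 flox and 28183 CPM (27338 to 29047) in the Tsc1 RPE KO library, against 9279 (9089 to 9472) and 8243 CPM (8020 to 8470) in the choroidal-type class. Dcn alone gave 66.5 to 75.6% of the member UMIs in each class and library. Of the 9 members, 6 were at least 2-fold higher in scleral-type cells in both libraries and 0 were at least 2-fold lower, while 3.96% of 6440 genes with at least 50 UMIs were higher and 8.21% lower by the same rule. The median log2 ratio of the members was 2.59 in Tsc1 flox and 3.31 in the Tsc1 RPE KO library, beside medians of -0.26 and -0.19 over all those genes. The classes are cut from the same cells, so these ratios describe them and are not a test.

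Fmod, which binds collagen I fibrils and is abundant in tendon, had 224 UMIs in the 29 scleral-type cells of Tsc1 flox and 232 in the 24 of Tsc1 RPE KO, or 1305 and 1552 CPM. The choroidal-type cells held 16 and 9 UMIs, or 16.4 and 14.3 CPM. Both scleral-type values therefore stood far above both choroidal-type values, with ratios of 79.6 (48.0 to 142) and 108 (56.1 to 240). Fmod UMIs were seen in 7 of 237 and 5 of 154 choroidal-type cells (2.95 and 3.25%), against 4 of 1737 lymphocyte-like cells (0.230%).

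Aspn, a relative of decorin that binds collagen and carries a run of aspartate residues, had 810 CPM (681 to 956) and 943 CPM (794 to 1112) in scleral-type cells. In choroidal-type cells it had 7.17 and 14.3 CPM, from 7 and 9 UMIs. The ratios were 113 (53.4 to 286) and 65.9 (33.7 to 147), and their intervals overlap. In Tsc1 RPE KO, 6 of the 9 choroidal-type UMIs came from 1 cell, and without the cell with most UMIs of each class the ratio was 164 (54.9 to 809), from 3 UMIs.

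The other 2 members of the chromosome 13 row followed the same direction with smaller ratios. Ogn had 2668 and 2977 CPM in scleral-type cells against 199 and 159 CPM in choroidal-type cells, ratios of 13.4 (11.3 to 16.0) and 18.7 (15.0 to 23.5). Omd had 227 and 221 CPM against 23.6 and 22.3 CPM, ratios of 9.65 (5.62 to 16.9) and 9.91 (5.16 to 20.04). Their neighbour Ecm2, which is no member, had ratios of 6.91 and 7.13. All 4 genes of the row were therefore higher in the scleral-type class in both libraries.

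Podn, a larger family member, had 111 and 154 CPM in scleral-type cells against 18.4 and 9.55 CPM in choroidal-type cells. Its ratios were 6.01 (2.98 to 12.1) and 16.1 (6.38 to 48.4), with 19 and 23 scleral-type UMIs behind them. Podn fell short of the minimum of 50 UMIs when cells were gated on Edn3, Pgf and Sfrp2 instead of clustered. With that gate the ratio of Aspn was 53.6 and 27.0, that of Fmod 133 and 247, and that of Podn in Tsc1 flox 3.74 (1.43 to 8.87).

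Dcn, the most studied member and a binder of collagen and of TGF-beta, was seen in all 29 and 24 scleral-type cells and in over 95% of choroidal-type cells. Its level was 27713 CPM (26931 to 28512) and 18744 CPM (18056 to 19451) in scleral-type cells and 6224 (6068 to 6382) and 5768 CPM (5582 to 5959) in choroidal-type cells. The ratios were 4.45 (4.29 to 4.63) and 3.25 (3.09 to 3.41). Dcn thus marked both classes and differed between them in amount.

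Lum, which in the cornea and sclera is needed for regular collagen fibrils, had 2208 and 2074 CPM in scleral-type cells and 1960 and 1410 CPM in choroidal-type cells, ratios of 1.13 (1.01 to 1.26) and 1.47 (1.29 to 1.68). In Tsc1 flox the ratio of Lum was 0.865 when cells were gated instead of clustered, 0.954 without choroidal sub-cluster 1 (described further on) and 0.971 without the cell with most UMIs of each class, so no direction is given for it there. Bgn, the closest relative of Dcn, had 1311 and 950 CPM against 601 and 622 CPM, ratios of 2.18 (1.86 to 2.55) and 1.53 (1.25 to 1.85). Prelp, which binds collagen and the heparan sulfate of basement membranes, had 320 and 569 CPM against 230 and 223 CPM, ratios of 1.39 (1.02 to 1.87) and 2.55 (1.93 to 3.37). Bgn and Prelp each passed 2-fold in 1 library and not in the other.

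**Figure D2:**
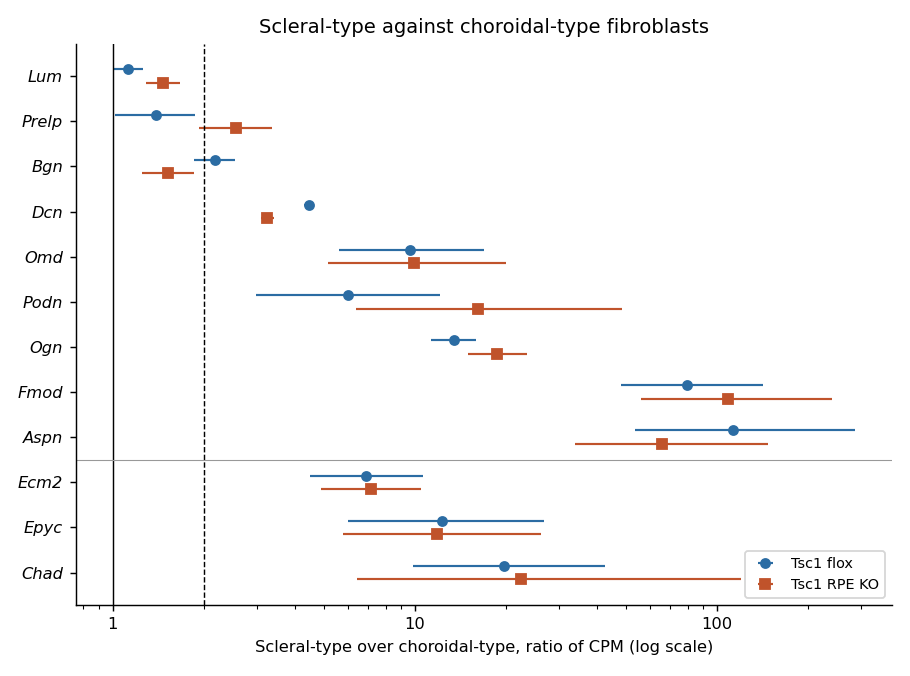
Ratio of scleral-type to choroidal-type CPM on a log axis for the 9 members (above the grey line) and 3 related genes (below it), circles for Tsc1 flox and squares for Tsc1 RPE KO, with 95% counting intervals; the solid line is a ratio of 1 and the dashed line a ratio of 2. Lum, Prelp and Bgn lie between 1.13 and 2.55, and Fmod and Aspn between 65.9 and 113.

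At equal depth the contrast could also be seen in the share of cells with a UMI for Ogn, Aspn, Fmod and Omd. The intervals of these shares overlapped for Dcn and Podn in both libraries. With every cell thinned to 1000 UMIs, Ogn was seen in 23 of 29 and 20 of 24 scleral-type cells (79.3 and 83.3%) and in 29 of 237 and 18 of 154 choroidal-type cells (12.2 and 11.7%). Before thinning Ogn was seen in 96.6 and 100% of scleral-type and 27.0 and 27.3% of choroidal-type cells. Thinned Aspn was seen in 13 of 29 and 14 of 24 scleral-type cells and in 1 choroidal-type cell of each library. Fmod was then seen in only 11 of 29 and 5 of 24 scleral-type cells, and in 2 of 237 and 0 of 154 choroidal-type cells. Podn was seen in 5 of 29 and 2 of 24 against 9 of 237 and 2 of 154, and Dcn in 100% against 84.8 and 87.0%. Thinned Lum was seen in 75.9 and 66.7% of scleral-type and 73.4 and 63.0% of choroidal-type cells, shares that lie close together within each library. A scleral-type cell had UMIs of a median of 7 of the 9 members in both libraries, and of 5 and 4.5 after thinning. A choroidal-type cell had UMIs of 4 and 3, and of 2 and 2 after thinning.

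Relatives of the members on a list of 9 other family genes pointed the same way where they were counted. Kera (keratocan, a keratan sulfate carrier best known from the cornea) had 55 and 56 UMIs in scleral-type cells and 0 in choroidal-type cells. With a floor of 3 counts put in for 0, its ratios were 104 and 78.5, and their lower limits were 82.0 and 61.7. Epyc (epiphycan) was 12.3-fold (6.0 to 26.8) and 11.8-fold (5.80 to 26.1) higher, and Chad (chondroadherin), a cartilage protein, 19.7-fold (9.84 to 42.6) and 22.4-fold (6.42 to 120). With Ecm2 these made 4 of 5 measured genes past 2-fold in both libraries, beside 3.96% of 6440 genes higher by that rule. Tsku had ratios of 1.68 (0.83 to 3.18) and 0.67 (0.17 to 1.95), and Chadl, Optc, Nyx and Podnl1 had at most 12 UMIs in any class and library.

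The genes around the family in the matrix were counted from lists by the same 2-fold rule. By that rule 3.96% of 6440 genes were higher in scleral-type cells and 8.21% lower. Of 21 measured fibrillar collagens and their partners, 17 were higher in scleral-type cells and 0 lower, with median log2 ratios of 2.11 and 2.37. Col1a1 was 10.4-fold (9.71 to 11.2) and 6.09-fold (5.47 to 6.79) higher, and Col14a1, a fibril-associated collagen, 5.72-fold and 5.18-fold. Of 11 proteases, inhibitors and enhancers, 7 were higher and 0 lower, among them Pcolce, an enhancer of procollagen processing, at 2.54-fold and 2.84-fold. The enzymes that build glycosaminoglycan chains gave other counts: 1 of 16 was higher and 3 lower, with medians of 0.24 and 0.21. Of 9 growth factors and receptors that the family binds, 2 were higher, and Tgfbr2, a TGF-beta receptor, was 2.35-fold (1.80 to 3.05) and 3.82-fold (2.84 to 5.14) higher. Col1a1 is also a fibroblast marker used to name cells.

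Markers of other cell types were counted in both fibroblast classes. The 8 endothelial markers summed to 499 and 457 CPM in choroidal-type cells and 93.2 and 40.1 CPM in scleral-type cells. Egfl7 and Cldn5 were at 0 in the scleral-type class, and in Tsc1 RPE KO also in choroidal-type cells. Kdr from this list went the other way, at 5.12 and 4.77 CPM in choroidal-type and 40.8 and 13.4 CPM in scleral-type cells. The 9 pericyte or smooth muscle markers summed to 630 and 843 CPM and to 146 and 174 CPM, with Rgs5, Notch3, Myh11 and Des at 0 in scleral-type cells. Myh11 was also at 0 in choroidal-type cells of Tsc1 flox. Cspg4 went the other way, at 28.7 and 47.7 CPM and at 64.1 and 107 CPM. The 9 monocyte markers summed to 168 and 215 CPM in choroidal-type and 833 and 963 CPM in scleral-type cells. Fn1 from that list was at 612 and 609 CPM in scleral-type cells. The 8 cartilage or tendon markers summed to 407 and 473 CPM and to 146 and 134 CPM, mostly Sox9 in choroidal-type cells, with Acan and Matn1 at 0 in both classes. RPE markers lay between 6.69 and 36.6 CPM with Rpe65 at 0 throughout. The 9 macrophage markers summed to 240 and 161 CPM in choroidal-type and 227 and 234 CPM in scleral-type cells. Of these, C1qa, C1qb, C1qc and Mrc1 were at 0, while Cd68 had 11 and 4 UMIs and Csf1r 3 and 4 in choroidal-type cells. The part of these markers in the class ratios was not tested. With free RNA subtracted the same 6 members passed. Free RNA was put at only 0.871 and 0.711% of choroidal-type and 0.748 and 0.583% of scleral-type UMIs. Subtracting so little could hardly change which members passed, so nothing is read from it.

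The scleral-type cells differed among themselves, and Fmod and Aspn were not spread alike over them. In Tsc1 flox Fmod was seen in 15 of 29 cells, and 4 cells held 157 of its 224 UMIs (70.1%). In Tsc1 RPE KO it was seen in 7 of 24 cells, and 3 cells with 112, 59 and 52 UMIs held 223 of 232 (96.1%). A few cells thus held most Fmod UMIs of both libraries. Aspn was seen in 26 of 29 and 19 of 24 cells, with a median of 4 UMIs in both libraries.

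Tnmd (tenomodulin, a tendon marker) and Cilp2 (a cartilage matrix protein), both on the scleral marker list, were used after their values had been seen to part the scleral-type cells, which gives a description without a test. Cells with a UMI of either numbered 14 and 6, and cells without numbered 15 and 18, at median depths of 4765.5 and 5685 against 6016 and 6576.5 UMIs. Fmod was at 2823 CPM (2462 to 3223) and 6533 CPM (5717 to 7432) in the cells with Tnmd or Cilp2. In the cells without it was at 53.1 CPM and 8.76 CPM, from 5 UMIs and 1 UMI. Fmod was seen in 13 of 14 and 6 of 6 cells with Tnmd or Cilp2 and in 2 of 15 and 1 of 18 cells without.

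The cells with Tnmd or Cilp2 also held Kera at 657 and 1329 CPM, against 42.5 and 78.9 CPM in the others, and all 38 and 16 Chad UMIs of the class. Dcn, counted in every cell of both kinds, was at 38545 and 29892 CPM with Tnmd or Cilp2 and 18781 and 15290 CPM without. The cells without were rich in Pi16 (5931 and 4337 CPM), Clec3b (1318 and 1630 CPM) and Cd34 (1414 and 1174 CPM), genes known from fibroblasts around vessels and in loose connective tissue. With Tnmd or Cilp2 these were lower, Pi16 at 670 and 2036 CPM and Cd34 at 206 and 339 CPM.

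Aspn did not follow Fmod across these cells. It was at 632 CPM (467 to 835) and 594 CPM (368 to 908) in the cells with Tnmd or Cilp2 and at 957 CPM (769 to 1176) and 1051 CPM (872 to 1257) in those without. Ogn was at 3146 and 2178 CPM with and 2275 and 3224 CPM without, so its order turned between libraries. Lum was at 2076 and 1471 CPM with and 2317 and 2261 CPM without. Prelp in Tsc1 RPE KO was at 1329 CPM (977 to 1767) with and 333 CPM (236 to 457) without, while in Tsc1 flox the values, 387 (261 to 552) and 266 CPM (172 to 392), had overlapping intervals.

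**Figure D3:**
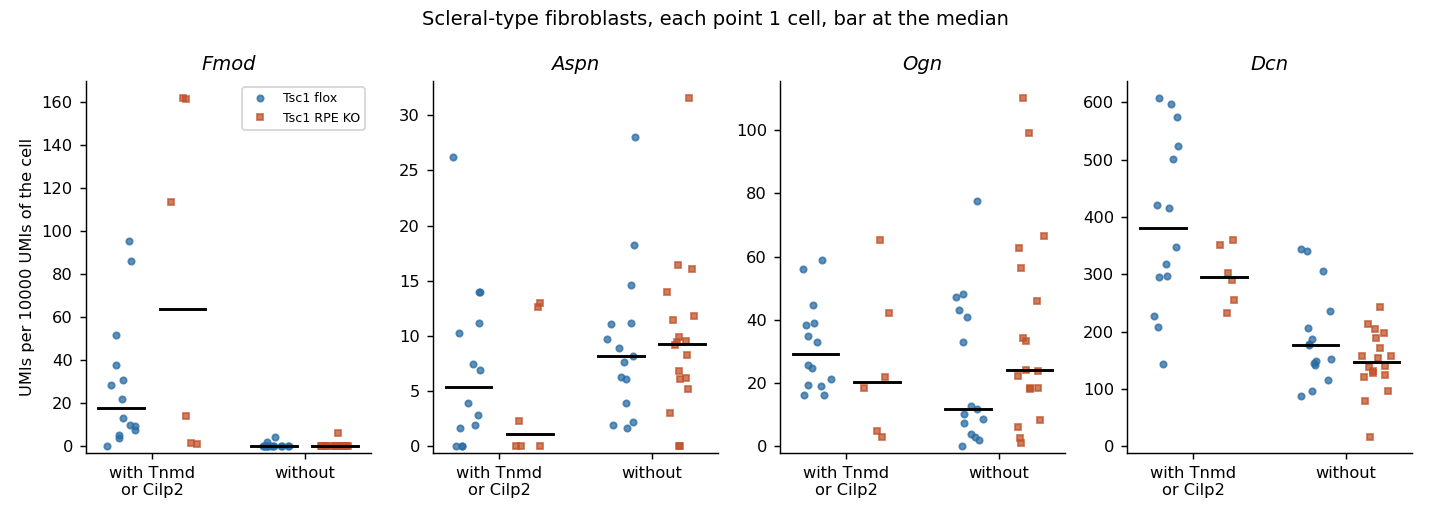
UMIs per 10000 UMIs of the cell (vertical axis, linear) for Fmod, Aspn, Ogn and Dcn in each of the 53 scleral-type cells, parted by Tnmd or Cilp2 UMIs, circles for Tsc1 flox and squares for Tsc1 RPE KO, bars at the medians. Fmod lies near 0 in the 33 cells without either gene, while Aspn is spread over both kinds.

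Choroidal-type cells formed 2 sub-clusters at resolution 0.5. Sub-cluster 1 (119 and 63 cells) was led against the other fibroblasts by Rgs5, Foxd1, Slc47a1 and Cyp26a1, and sub-cluster 0 (118 and 91 cells) by Cxcl1 and Coch among others. Of 5 measured members, 1, Dcn, was at least 2-fold higher in sub-cluster 1 in both libraries, and 0 were lower, while 2.18% of 5729 genes were higher and 1.24% lower. Dcn was at 8447 and 8756 CPM in sub-cluster 1 and 3958 and 3598 CPM in sub-cluster 0, ratios of 2.13 (2.02 to 2.25) and 2.43 (2.27 to 2.61). Lum went the other way, at 1613 and 915 CPM in sub-cluster 1 and 2314 and 1769 CPM in sub-cluster 0. All 16 and 9 Fmod UMIs of the choroidal-type class lay in sub-cluster 1. Without sub-cluster 1 the choroidal-type cells held 0 Fmod UMIs. With a floor of 3 counts per library put in for 0, the scleral-type ratios of Fmod were 210 and 188, and their lower limits were 170 and 152. The scleral-type ratio of Dcn was then 7.0 and 5.21 and that of Ogn in Tsc1 flox 24.8. That of Aspn in Tsc1 RPE KO was 343 (60.6 to 13657) and that of Podn 28.0 (6.92 to 245), from 1 and 2 choroidal-type UMIs. Without sub-cluster 0 the ratio of Dcn in Tsc1 RPE KO was 2.14, that of Lum 2.27, that of Aspn 31.2 and that of Podn 10.2. That of Fmod was 40.2 and 45.6.

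Outside the fibroblasts, Aspn was also found in the 14 pericyte or smooth muscle-like cells, a cluster led by Rgs5 and Notch3. They held 65 of all 364 Aspn UMIs (17.9%, 14.1 to 22.2%). Aspn was seen in 7 of 9 cells of Tsc1 flox with 48 UMIs and in 5 of 5 of Tsc1 RPE KO with 17 UMIs, or 1312 CPM (967 to 1739) and 821 CPM (478 to 1315). In Tsc1 flox 28 of the 48 UMIs came from 1 cell of 9643 UMIs, without which the level was 742 CPM. The scleral-type class had 810 CPM (681 to 956) and 943 CPM (794 to 1112), so the intervals did not overlap in Tsc1 flox with all cells and did in Tsc1 RPE KO, while choroidal-type cells had 7.17 and 14.3 CPM.

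The same 14 cells held 39 and 6 Ogn UMIs, 16 and 8 Bgn UMIs and 12 and 6 Prelp UMIs. Fmod, Podn and the scleral marker Sfrp2 were at 0 in all of them, and Dcn was seen in 4 of 9 and 1 of 5 cells. The choroidal marker Edn3 was seen in 7 of 9 and 3 of 5 of these cells at 874 and 2028 CPM, against 2122 and 2008 CPM in choroidal-type cells. The part of fibroblast RNA in the values of these cells was not tested.

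Endothelial-like cells held Bgn. It was seen in 13 of 41 cells of Tsc1 flox and 18 of 48 of Tsc1 RPE KO, or 116 CPM (70.7 to 179) and 204 CPM (143 to 282), against 6 of 1737 lymphocyte-like cells (0.345%) at median depths of 3555 and 4412 UMIs. Dcn, the most abundant member in free RNA, was seen in 2 of the 89 endothelial-like cells. RPE-like cells, in turn, held Ogn in 5 of 12 and 8 of 46 cells, with 6 and 9 UMIs, or 187 CPM (68.6 to 407) and 75 CPM (34.3 to 142). Free RNA held Ogn at 82.5 and 73.4 CPM, values inside both of these intervals. Dcn, at 1230 and 840 CPM in free RNA, was seen in 1 of the 58 RPE-like cells. The part of free RNA in Bgn of endothelial-like cells and in Ogn of RPE-like cells was not tested. Rod-like cells, the other cells from next to the RPE, held 0 Ogn UMIs in 218 cells, where the floor of 3 counts allows up to 1.38% of cells with a UMI, and the Clopper-Pearson interval reaches 1.68%.

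Across 10 classes with at least 20 cells in each library, of which 3 were unnamed clusters, Fmod and Aspn had the pattern most alike among members (Pearson r 0.998 of log2(CPM + 10) over 20 points), and Dcn and Lum were at 0.994. The closest other genes were Clec3b, Col6a3 and Sfrp2 for Fmod and Clec3b, Sfrp2 and Sfrp4 for Aspn, at r between 0.984 and 0.998. They were Fbln1, Serping1 and Twist1 for Dcn, Islr, Pdpn and Fap for Lum, Igfbp6, Vit and Angptl1 for Ogn, Mxra8, Fkbp9 and Sulf1 for Bgn, and Lhfp, Ddr2 and Mmp2 for Prelp, at r between 0.991 and 0.996. Each library gives a point for every class, so the points share libraries and depth, and Clec3b, Sfrp2, Fbln1 and Serping1 are among the markers that named the classes. The r of Fmod and Aspn is over classes, and within the scleral-type class the values by cell differ as given above.

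Between genotypes, 0 of the 5 choroidal-type members with at least 50 UMIs differed by 1.5-fold in either direction. Of 5729 genes, 3.72% were higher and 8.01% lower in Tsc1 RPE KO by that size. Among 5 members a count of 0 is near those shares and sets the members apart in no way. Dcn was 1.08-fold lower (1.04 to 1.12) in Tsc1 RPE KO, and Bgn (ratio 1.04, 0.908 to 1.18) and Prelp (0.967, 0.777 to 1.2) had intervals that include 1. Ogn was 1.25-fold lower (0.976 to 1.61). Lum, at 1960 CPM (1873 to 2050) in Tsc1 flox and 1410 CPM (1319 to 1506) in the Tsc1 RPE KO library, was 1.39-fold lower (1.28 to 1.51), the farthest from 1 of the 5, and without choroidal sub-cluster 0 its ratio was 0.568, past 1.5-fold. Fmod, Aspn, Omd and Podn had too few UMIs in choroidal-type cells to be compared.

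In scleral-type cells, 1 of 8 measured members passed 1.5-fold, against 9.9% of 1020 genes higher and 8.82% lower. Prelp had 55 UMIs in Tsc1 flox and 85 in the Tsc1 RPE KO library, 1.77-fold higher (1.25 to 2.54). A single Tsc1 RPE KO cell gave 21 of the 85, and without the cell with most UMIs of each library the ratio was 1.59. Dcn was 1.48-fold lower (1.41 to 1.55) in Tsc1 RPE KO, and passed 1.5-fold with median-of-ratios scaling. Bgn was 1.38-fold lower (1.11 to 1.71). The mix of scleral-type cells also differed between the libraries, with 14 of 29 cells of Tsc1 flox and 6 of 24 of Tsc1 RPE KO holding Tnmd or Cilp2, the kind in which Dcn was higher. Within the cells with these genes the level of Dcn was 38545 and 29892 CPM and within those without 18781 and 15290 CPM. The split was made after values were seen, and the part of the cell mix in the ratio of Dcn was not tested. Fmod was 1.19-fold higher (0.986 to 1.44) in Tsc1 RPE KO and at a ratio of 0.79 without the cell with most UMIs of each library. Erythroid markers, which free RNA can carry, summed to 256 CPM in Tsc1 flox and 87.0 CPM in the Tsc1 RPE KO library in these cells and to 384 and 121 CPM in choroidal-type cells, and their part in these ratios was not tested.

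**Figure D4:**
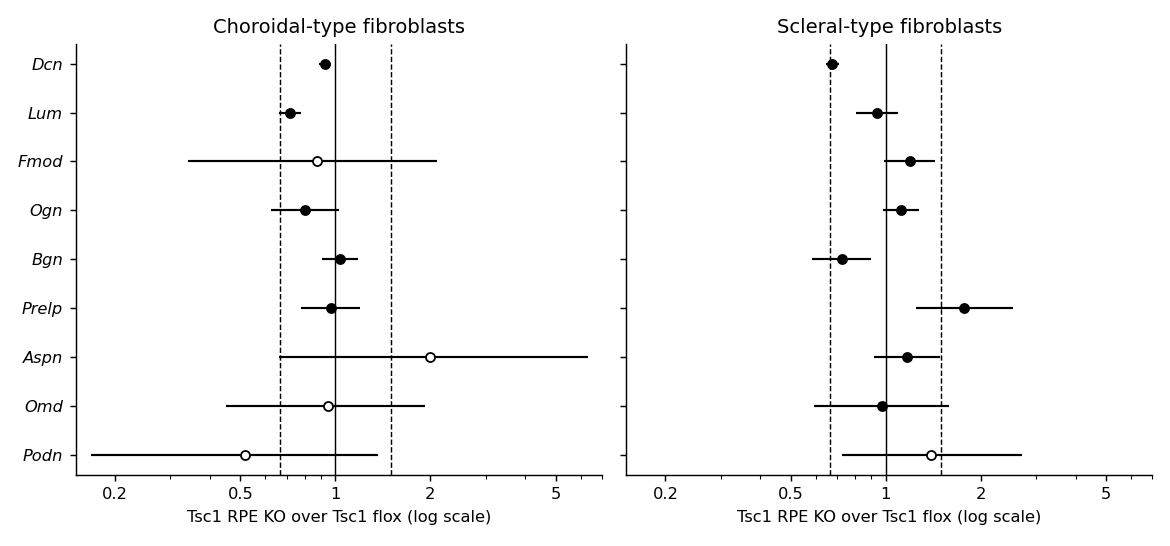
Ratio of Tsc1 RPE KO to Tsc1 flox CPM on a log axis for each member in choroidal-type (left) and scleral-type fibroblasts (right), with 95% counting intervals; filled points have at least 50 UMIs, and dashed lines mark 1.5-fold in each direction. Prelp in scleral-type cells is the filled point past a dashed line, at 1.77.

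The difference of Lum was uneven over the choroidal-type cells. When the fibroblasts were sub-clustered at resolution 1, and examined for Lum after its lower level had been seen, choroidal-type cells fell into 6 sub-clusters, and Lum was lower in Tsc1 RPE KO in all 6. In 3 of them the interval of the ratio lay below 1. Outside the sub-cluster led by Rgs5 the ratio was between 0.674 and 0.897. One of those was led by Rac2, Coro1a and Igkc, genes of lymphocytes. In the sub-cluster led by Rgs5, Cyp26a1, Adamtsl3 and Slc47a1 and made of 51 and 34 cells, Lum had 334 UMIs in Tsc1 flox and 35 in the Tsc1 RPE KO library, or 1357 and 234 CPM, 5.80-fold lower (4.09 to 8.47). It was seen in 37 of 51 cells, with up to 39 UMIs, and in 13 of 34 cells, with up to 7.

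Dcn, Bgn and Ogn differed by less than Lum in the Rgs5-led cells. Dcn was at 12071 and 10773 CPM, 1.12-fold lower (1.05 to 1.19), Bgn at 824 and 809 CPM, and Ogn at 447 and 241 CPM, 1.86-fold lower (1.26 to 2.79). Prelp, with 62 and 31 UMIs, had a ratio of 0.823 (0.517 to 1.29), and Fmod, with 15 and 8, a ratio of 0.878 (0.322 to 2.21). Omd, with 7 and 1 UMIs, and Podn, with 5 and 2, had too few UMIs for a size to be read, and their intervals include that of Lum. Aspn went the other way from 3 and 8 UMIs, at a ratio of 4.39 (1.05 to 25.7), and 1 Tsc1 RPE KO cell held 6 of the 8. In this sub-cluster 10.8% of 1443 genes were at least 1.5-fold lower in Tsc1 RPE KO and 10.0% higher. The median depth was 4585 and 4496.5 UMIs per cell. The choroidal markers Edn3 (2815 and 2520 CPM) and Pgf (1084 and 822 CPM) and the scleral markers Thbs4 (341 and 267 CPM) and Pi16 (471 and 368 CPM) were lower by less than 1.5-fold. Cyp26a1, which clears retinoic acid, was 3.07-fold (2.05 to 4.69) higher and Foxd1, a transcription factor, 2.21-fold (1.40 to 3.53) higher in Tsc1 RPE KO. Both are among the genes that lead the sub-cluster. Over all other choroidal-type cells, 186 and 120, Lum was at 2163 and 1777 CPM, 1.22-fold lower (1.12 to 1.32). Each library pools 2 mice, and a difference between animals cannot be told apart from one between genotypes.

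**Figure D5:**
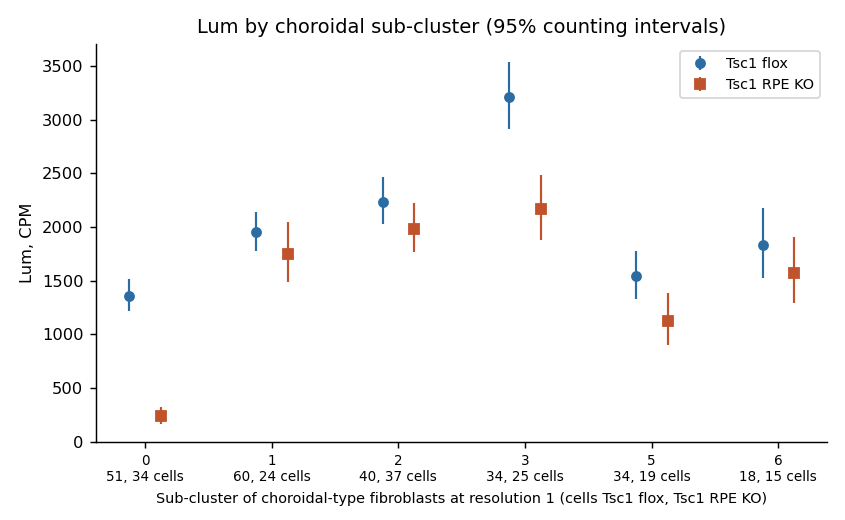
Lum in CPM (vertical axis, linear from 0) in the 6 choroidal-type sub-clusters at resolution 1, circles for Tsc1 flox and squares for Tsc1 RPE KO, with exact Poisson intervals and the cell numbers of both libraries under each. In sub-cluster 0, led by Rgs5, the values are 1357 and 234 CPM, and the other sub-clusters lie between 1119 and 3211 CPM.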

How the data were processed

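Single cells of RPE and choroid were read with a 10x 3' kit in 2 libraries. The deposited matrices hold raw UMI counts per gene and barcode, made by the authors with Cell Ranger 2.1.1 on mm10 per the submitters' processing notes, while the header of the matrices, per the file headers, names software version 4. The libraries hold 10771118 (Tsc1 flox) and 12574364 UMIs (Tsc1 RPE KO) over 661479 and 728310 listed barcodes, so empty droplets are included.

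Barcodes were kept as cells above 10% of the 99th percentile of the top 3000 barcodes (1487.41 and 1373.61 UMIs) with at least 200 genes and at most 20% mitochondrial UMIs. Scrublet marked 8 and 19 barcodes, which were removed. Cells were clustered with scanpy 1.11.5 and leidenalg 0.10.2 (2000 variable genes without the members, 30 components, 20 neighbours, resolution 1) and fibroblast-like cells again at resolution 0.5. A cluster was named when at least 3 markers of a list reached 10% of its cells and 2-fold over the rest. The mean log2 fold of that list also had to be above 1, with no other list holding more of the 10 leading genes. Clusters of low depth without a marker among those genes stayed unnamed. Fibroblast sub-clusters took the name of the choroidal or scleral list with the higher mean log2 level against the mean of the sub-clusters. Counts were summed per class and library and scaled to CPM. Levels have exact Poisson intervals, ratios exact conditional binomial intervals and shares Clopper-Pearson intervals. A gene was measured with at least 50 UMIs, and the rules of size were 2-fold in both libraries between classes and 1.5-fold between genotypes. Scripts were tested on simulated data. All 9 members were described, with up to 4 genes of each other list named by summed UMIs (all 9 for the other family genes). Genes leading sub-clusters, the split by Tnmd and Cilp2 and the genes set beside it were named after their values were seen. The members and lists were chosen with earlier results of these data known. Alternatives changed the UMI minimum, doublets, clustering, scaling, gene minimum, free RNA and the gate.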

Additional observations from a re-analysis of the deposited data

How the results depend on the processing

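The 6 members at least 2-fold higher in scleral-type cells were the same genes with UMI minimums of 1000 or 500, sub-clustering at resolution 1, no doublet removal, clustering also without collagens and fibroblast markers, median-of-ratios scaling, no gene minimum beyond 1 UMI and free RNA subtracted. They were also the same in settings chosen after seeing the data, without either choroidal sub-cluster or without the cell with most UMIs of each member. Gating on Edn3, Pgf and Sfrp2 gave 5, without Podn. Either library alone gave 7, with Prelp added without Tsc1 flox and Bgn added without Tsc1 RPE KO. The fibroblast share of member UMIs was 98.1% without doublet removal. Between genotypes, scleral-type members past 1.5-fold numbered 2 (Dcn and Prelp) with median-of-ratios scaling. Choroidal-type members past 1.5-fold numbered 2 (Aspn and Podn, with 16 and 24 UMIs) with no gene minimum beyond 1 UMI, and 1 (Lum) without sub-cluster 0. Apart from the changes in construction these settings state, the cause was not tested. Of 343 single ratios under alternatives, 301 moved by less than their counting error and 42 by more. The ratio of Fmod ran from 40.2 to 210 (with 3 counts put in for 0) in Tsc1 flox and from 45.6 to 247 in Tsc1 RPE KO. That of Aspn ran from 53.6 to 133 and from 27.0 to 343, the highest from 3 and 1 choroidal-type UMIs. No paired analysis was possible because each genotype has 1 library. The 53 scleral-type cells limit the precision of each value given for them.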

Other observations

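Gpc3, a cell-surface heparan sulfate proteoglycan, ran against the small leucine-rich members between the fibroblast classes. It was at 262 and 622 CPM in scleral-type cells and 1530 and 1494 CPM in choroidal-type cells, 5.84-fold (4.34 to 8.04) and 2.40-fold (1.94 to 3.01) lower in the scleral-type class. Of 11 measured genes on the list of large and other proteoglycans, 5 were at least 2-fold higher in scleral-type cells in both libraries and 2 lower. Over 6440 genes these shares were 3.96% higher and 8.21% lower, and 2 lower genes of 11 are too few to set the list apart. Sdc2, a syndecan, was 1.96-fold (1.38 to 2.75) and 3.83-fold (2.66 to 5.50) higher. Timp3, an inhibitor of matrix proteases known from Bruch's membrane, was at 4439 and 1692 CPM in scleral-type and 3854 and 4091 CPM in choroidal-type cells, a ratio of 1.15 (1.06 to 1.25) in Tsc1 flox and 2.42-fold lower (2.12 to 2.76) in Tsc1 RPE KO. Whether the 2 libraries differ in this was not tested.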
